A study of Homo sapiens with 2 samples.

Results

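p53 is a stress-activated transcription factor that switches on genes of cell cycle arrest, DNA repair, apoptosis and metabolism. It is held in check by proteins that are themselves among its targets: MDM2, a ubiquitin ligase that marks p53 for degradation, its relative MDM4, which covers the activation domain of p53, and PPM1D, a phosphatase that removes activating phosphates. In prostate cancer cells the same targets can also respond to other inputs, such as FOXO factors for the sestrins. The genes described here are regulators and targets of p53, taken by gene symbol from a list drawn up with earlier results of these data known, and 36 of 36 were found among the 25343 rows of the deposited expression table.

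The study compared C4-2B Con with C4-2B ENZR. C4-2B is a castration-resistant subline that derives, through C4-2, from the human prostate cancer line LNCaP. ENZR, the resistant line, was grown in 20 µM enzalutamide, an antagonist of the androgen receptor, and Con, the sensitive line, was grown in parallel in the same serum-containing medium with DMSO. ENZR cells thus differed from Con cells both in their resistance and in the presence of the drug. Both sample names carry the ending shC, whose meaning the labels leave unsaid. Each line gave 1 RNA-seq library, so no difference below has a replicate, no test of the conditions exists, and how far 2 cultures of one line would differ is not known.

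The libraries held 21024484 reads in genes for Con and 23479051 for ENZR. Values are CPM, a gene's reads per 1000000 reads of its library, after the authors' TMM scaling, and 1 read was worth 0.0490 CPM in Con against 0.0404 CPM in ENZR. A "counting interval" below is the exact 95% Clopper-Pearson interval of the CPM ratio, which covers counting error only. All 12 prostate luminal markers were measured, but they were lower in ENZR as a list: 9 of 12 had a log2 ratio of ENZR over Con below 0, 3 were at least 2-fold lower, and the median was -0.60. The other 3 were above 0. Their sum was 5388 CPM in Con against 3311 CPM in ENZR. Most of that drop lay in a single marker, which stood at 1428 CPM in Con against 3.72 CPM in ENZR. Of the leukocyte, endothelial and fibroblast markers, 9 of 13 stayed under a mean of 1 CPM over both libraries. The other 4 of these 13 summed to 24.9 CPM in Con against 53.5 CPM in ENZR, most of it COL1A1. Among the markers under that mean, CD3E, HBB, CDH5 and COL1A2 had 0 reads in both libraries. Others under it did not: LUM had 0 reads in Con against 32 in ENZR, and CD14 had 4 against 0. The part of either marker list in the results was not tested.

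All 36 genes passed the filter, a mean of at least 1 CPM, so none was lost to low values. Their levels ran from 0.931 CPM (AIFM2) to 399 CPM (SESN3) in Con and from 1.25 CPM (AIFM2) to 475 CPM (BTG1) in ENZR. Of the 36, 26 had a log2 ratio of ENZR over Con above 0, with 1 CPM added to each value, and 10 had one below 0, where 49.5% of the 13803 measured genes lay above 0. At least 2-fold higher in ENZR were 6 of 36, or 16.7%, against 6.69% of all measured genes, though the list was not chosen blind to these data. In these bulk cultures, more RNA per cell and more cells that express a gene cannot be told apart. The 6 were BTG1, TP53I11, GADD45A, SESN1, BTG2 and TP53I3. At least 2-fold lower was 1 of 36, GADD45B, against 4.64% of all measured genes. The median log2 ratio of the 36 was 0.27, beside -0.006 over all measured genes. With the TMM scaling undone both medians moved up, to 0.39 and 0.10, so their distance stayed at 0.28.

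The counting interval lay above 1 for 21 of the 36 genes, below 1 for 8 and held 1 for 7. Over all measured genes it lay above 1 for 34.6% and below 1 for 36.6%, so at this depth an interval that excludes 1 is common (71.2% of all measured genes, and 29 of the 36). Among the 29 of the 36 genes whose mean reached 10 CPM, 4 were at least 2-fold higher and 0 were lower by as much, where the shares over all genes at such levels were 3.94% and 3.66%. The 36 genes summed to 1776 CPM in Con against 2203 CPM in ENZR. Without BTG1 the sums were 1702 CPM and 1728 CPM, and without SESN3 as well, the gene with the largest drop in CPM, they were 1304 CPM and 1521 CPM. Both genes were left out after their values were seen.

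**Figure D1:**
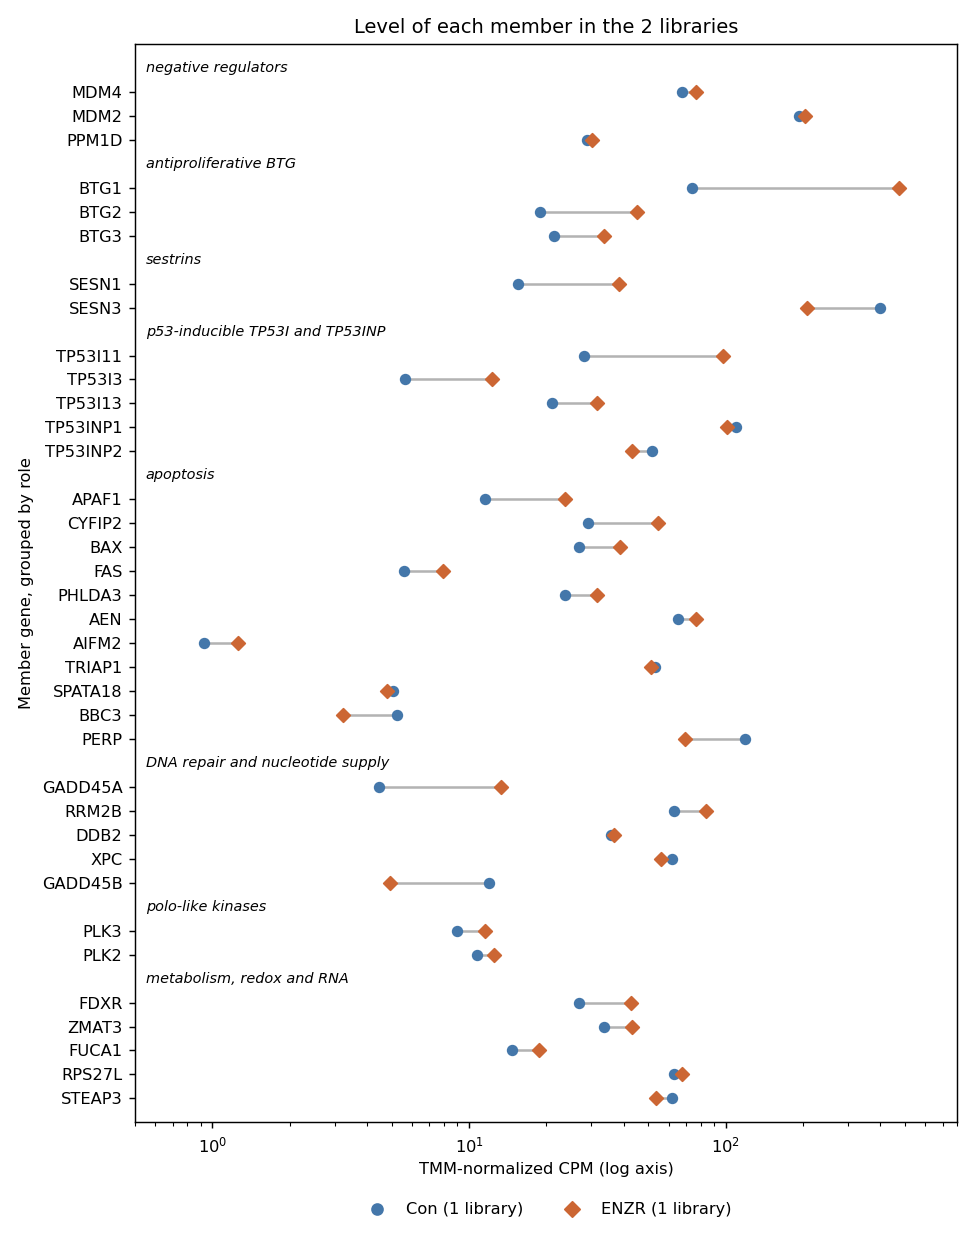
Level of each of the 36 genes in the Con library (circles) and the ENZR library (diamonds), in TMM-normalized CPM on a log axis, grouped by role. BTG1 shows the widest gap, from 73.7 CPM to 475 CPM, while MDM2, PPM1D, DDB2 and TRIAP1 nearly coincide.

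p53 binds DNA as a tetramer, and its consensus site is a pair of half-sites. Each half-site has 3 purines, a C, 2 bases that are A or T, a G and 3 pyrimidines, and it reads the same on both strands. RefSeq promoter windows (GRCh38.p14, 250 bases before to 50 after a transcript start) were matched by symbol for 32 of the 36 genes. A full site of 20 bases with no spacer, both C and G cores intact and at most 2 mismatches was found in 0.285% of all 35116 windows, or in 0.359% of the 27305 genes with a window. Among the genes described here it was found in 5 of 47 windows, from 4 of the 32 genes, MDM2, FAS, DDB2 and AEN, which are printed because they hold the closest matches. The match is in capitals and the flanking bases are in lower case, each read 5′ to 3′ along the gene's strand, which is the plus strand for these 4 genes.
MDM2, chr12:68808893-68808972: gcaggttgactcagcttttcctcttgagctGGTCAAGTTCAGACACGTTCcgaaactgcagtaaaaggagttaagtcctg
FAS, chr10:88991279-88991358: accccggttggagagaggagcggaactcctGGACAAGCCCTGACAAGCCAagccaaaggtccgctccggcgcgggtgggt
AEN, chr15:88621276-88621339: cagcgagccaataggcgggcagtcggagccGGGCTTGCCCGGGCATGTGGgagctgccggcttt
DDB2, chr11:47214939-47214988: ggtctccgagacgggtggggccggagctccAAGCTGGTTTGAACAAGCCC

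The MDM2 match starts 94 bases before one of the gene's internal starts, the FAS match 122 bases and the AEN match 34 bases before a start. The DDB2 match, with 1 mismatch where the other three have 2, begins 5 bases before the start and runs 15 bases into the transcript. A half-site without mismatch, which occurs in 6.63% of all windows and 8.06% of all genes with a window, was found in 7 of the 47 windows, from 7 of the 32 genes: FAS, DDB2 and AEN, where it lies in or beside the full match, and FDXR, PLK2, RPS27L and SESN1. SESN1, on the minus strand, was the sole gene with such a match among the 5 with a window that were at least 2-fold higher, and its half-site is in capitals here.
SESN1, chr6:109008998-109009067: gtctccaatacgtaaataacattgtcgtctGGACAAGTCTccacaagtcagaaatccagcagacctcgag

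The 4 genes with a full match differed little between the libraries, with ratios between 1.03 (DDB2) and 1.41 (FAS), and none reached 2-fold. BTG1, BTG2, TP53I3 and TP53I11, each at least 2-fold higher, held neither pattern in their windows, which says only that these letters are absent from those 300 bases. A match is a description of sequence and no evidence of binding in these cells.

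Genes that restrain p53 were at nearly the same level in both lines. MDM2 stood at 193 CPM in Con against 204 CPM in ENZR, a ratio of 1.06 (counting interval 1.01 to 1.10). MDM4 was at 67.6 CPM and 76.7 CPM, a ratio of 1.13 (1.06 to 1.22). PPM1D was at 28.9 CPM and 30.2 CPM, and its interval of 0.938 to 1.17 held 1. All 3 had log2 ratios between 0.06 and 0.18, and the shift of all genes with the scaling undone is of the same size, so their size rests on the scaling.

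The BTG genes encode antiproliferative proteins that recruit the CCR4-NOT deadenylase to messenger RNAs, and all 3 were higher in ENZR. Over all measured genes 49.5% had a log2 ratio above 0. BTG1 stood at 73.7 CPM in Con against 475 CPM in ENZR, on 1505 and 11753 reads, 6.45-fold higher (counting interval 6.11 to 6.81). Only 0.855% of all measured genes had a higher log2 ratio than BTG1. BTG2, an early p53 target also known as TIS21, was at 19.0 CPM and 45.0 CPM, 2.37-fold higher (2.11 to 2.67). BTG3, a binding partner of E2F1, was at 21.4 CPM and 33.4 CPM, a ratio of 1.57 (1.39 to 1.76). Per kilobase of annotated exon, a measure that allows for the genes' lengths, BTG1 and BTG3 had similar levels in Con, at 15.8 and 13.5 CPM per kilobase, with BTG2 lower at 6.99. In ENZR the BTG1 level was 101.6 CPM per kilobase, against 21.1 for BTG3 and 16.6 for BTG2. By this measure BTG1 was the most abundant of the 3 in ENZR by a wide margin, but close to BTG3 in Con. In plain CPM it was well above the others in both libraries.

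The 2 sestrins went opposite ways. Sestrins restrain the growth kinase mTORC1 and limit oxidative damage. SESN1 was at 15.6 CPM in Con against 38.3 CPM in ENZR, 2.46-fold higher (2.16 to 2.80). SESN3, known as a target of FOXO factors, was at 399 CPM in Con against 207 CPM in ENZR, 1.93-fold lower (1.86 to 2.00), on 8138 and 5118 reads. Per kilobase of exon SESN3 exceeded SESN1 in both libraries, with 39.0 against 3.95 CPM per kilobase in Con and 20.2 against 9.70 in ENZR. The paralog SESN2 was at 27.6 CPM and 29.8 CPM, and its interval of 0.967 to 1.21 held 1.

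Among the genes named for induction by p53, the 3 TP53I genes were higher in ENZR and both TP53INP genes were slightly lower. Over all measured genes 49.5% had a log2 ratio above 0. TP53I11 was at 28.2 CPM in Con against 98.0 CPM in ENZR, 3.48-fold higher (3.18 to 3.82), the second largest ratio of the 36. TP53I3, a quinone oxidoreductase also known as PIG3, was at 5.63 CPM and 12.3 CPM on 115 and 305 reads, 2.19-fold higher (1.76 to 2.74). With a pseudocount of 5 CPM its log2 ratio fell under 2-fold, from 1.01 to 0.70, and with the median of its chromosomal neighbours subtracted it was 0.91. TP53I13 was at 21.0 CPM and 31.5 CPM, a ratio of 1.50 (1.33 to 1.69). TP53INP1 and TP53INP2, both linked to autophagy, had ratios of 0.921 (0.870 to 0.975) and 0.836 (0.767 to 0.912).

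Of the 11 genes of apoptosis and cell death, 7 had log2 ratios above 0 and 4 below, where 49.5% of all measured genes lay above 0. None of the 11 was at least 2-fold different on that scale. Over all measured genes 6.69% were higher and 4.64% lower by as much, so this is near the background for so few genes. APAF1, the scaffold of the apoptosome, was at 11.6 CPM in Con against 23.6 CPM in ENZR, a plain ratio of 2.04 (1.75 to 2.38). Its log2 ratio of 0.97 lay just under 2-fold because of the pseudocount, and passed it when the TMM scaling was undone (1.08), under upper quartile scaling (1.02), with the 10 most abundant genes left out of the totals (1.08) and with the neighbours' median subtracted (1.22). APAF1 shares 750 exon bases with ANKS1B on the opposite strand, a gene at 4.07 CPM and 3.11 CPM, and whether the counting used strand is not stated. CYFIP2, a subunit of the actin-regulating WAVE complex, was at 29.1 CPM and 54.4 CPM, a ratio of 1.87 (1.69 to 2.06).

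The death effectors themselves were mixed. BAX, which opens the mitochondrial outer membrane, was at 26.9 CPM in Con against 38.7 CPM in ENZR, a ratio of 1.44 (1.29 to 1.60). FAS, a death receptor, was at 5.59 CPM and 7.89 CPM, a ratio of 1.41 (1.11 to 1.79). BBC3, which encodes PUMA, an activator of BAX, was lower, at 5.24 CPM in Con against 3.24 CPM in ENZR on 107 and 80 reads, 1.62-fold (1.202 to 2.19). PERP, a membrane protein of desmosomes, was lower too, at 119 CPM in Con against 69.3 CPM in ENZR, 1.72-fold (1.61 to 1.83). BAX and FAS were thus higher in ENZR, and BBC3 and PERP lower. PHLDA3, which competes with the kinase AKT for membrane lipids, had a ratio of 1.34 (1.19 to 1.50), and AEN, a nuclease, one of 1.17 (1.09 to 1.26). TRIAP1, SPATA18 and AIFM2 had intervals that held 1. AIFM2, a coenzyme Q reductase that protects from ferroptosis, rested on 19 and 31 reads, and its interval of 0.737 to 2.52 held both 1 and 2.

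In the DNA repair genes, the paralogs GADD45A and GADD45B, both small stress-response proteins, moved apart. GADD45A was at 4.46 CPM in Con against 13.3 CPM in ENZR, on 91 and 329 reads, 2.98-fold higher (2.36 to 3.81). GADD45B was at 11.95 CPM in Con against 4.93 CPM in ENZR, on 244 and 122 reads, 2.42-fold lower (1.94 to 3.04). Per kilobase of exon, GADD45B was above GADD45A in Con, at 7.67 against 2.98 CPM per kilobase, and below it in ENZR, at 3.17 against 8.89. Both calls depend on the pseudocount: with 5 CPM the log2 ratios were 0.95 for GADD45A and -0.77 for GADD45B. The nucleotide excision repair genes, which recognise damaged bases, were close to equal in the libraries, with DDB2 at 35.7 CPM and 36.9 CPM and XPC at 62.0 CPM and 55.9 CPM, a ratio of 0.902 (0.835 to 0.974). XPC shares 318 exon bases with LSM3 on the opposite strand, a gene at 90.0 CPM and 81.5 CPM. The log2 ratios were -0.141 for LSM3 and -0.147 for XPC. Whether shared reads play a part was not tested. RRM2B, the p53-induced subunit of ribonucleotide reductase, was at 62.8 CPM and 84.0 CPM, a ratio of 1.34 (1.25 to 1.44).

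**Figure D2:**
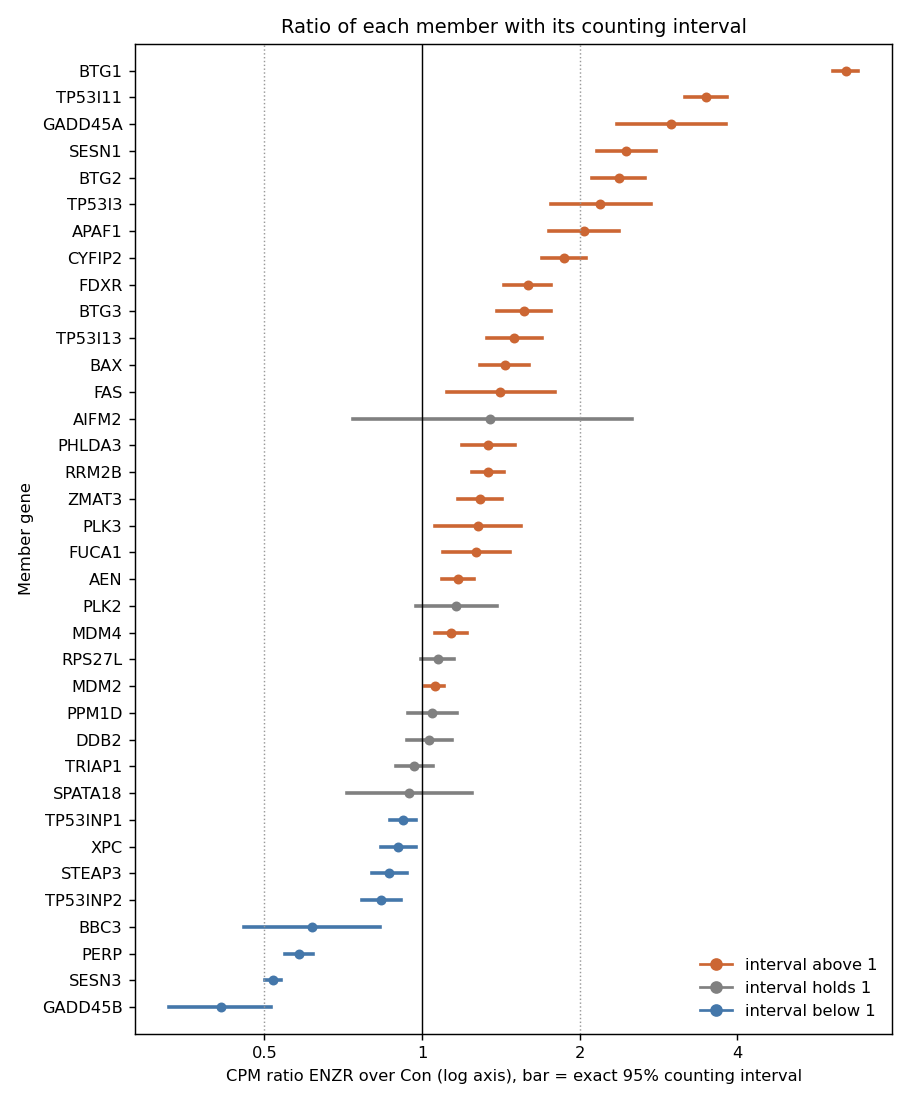
CPM ratio of ENZR over Con for each of the 36 genes on a log axis, with bars for the exact 95% counting interval and dotted lines at 2-fold in each direction. Intervals lie above 1 for 21 genes, from MDM2 to BTG1, and below 1 for 8, from GADD45B to TP53INP1, and AIFM2 has the widest.

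The stress-regulated polo-like kinases were little different. PLK3 was at 9.01 CPM in Con against 11.5 CPM in ENZR, a ratio of 1.28 (1.06 to 1.55), and PLK2 at 10.8 CPM and 12.5 CPM, with an interval of 0.975 to 1.39 that held 1. Of the 5 genes of metabolism, redox and RNA, 4 had log2 ratios above 0 and none reached 2-fold. Over all measured genes 49.5% lay above 0, and 6.69% were higher and 4.64% lower by 2-fold or more. For so few genes these counts are near that background. FDXR, the reductase that passes electrons to mitochondrial ferredoxins, was at 26.8 CPM and 42.7 CPM, a ratio of 1.59 (1.43 to 1.77). ZMAT3, an RNA-binding protein that acts on splicing, had a ratio of 1.29 (1.17 to 1.42), and FUCA1, a lysosomal fucosidase, one of 1.27 (1.10 to 1.47). RPS27L, which resembles the ribosomal protein gene RPS27 so that the split of reads is uncertain, had an interval of 0.995 to 1.15. STEAP3, an endosomal iron reductase, was at 62.0 CPM in Con against 53.7 CPM in ENZR, a ratio of 0.866 (0.801 to 0.936).

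Chromosomal neighbours bear on gains or losses of whole segments, so each gene was set beside the median log2 ratio of its 20 nearest measured genes, in RefSeq order. For 33 of the 36 genes this median was within 0.25 of 0. The exceptions were GADD45B on chromosome 19, with -0.61, and MDM4 and BTG2 on chromosome 1, with 0.44 and 0.37. APAF1, with -0.247, lay just inside that bound. The share of all genes with a neighbour median inside it was not computed, so the count does not set the 36 apart. Of the 20 neighbours of GADD45B only 1 was above 0, and with their median subtracted its log2 ratio went from -1.13 to -0.51, so the call of 2-fold was lost. BTG2 and MDM4 share 7 of their neighbours, and with the median subtracted BTG2 went from 1.205 to 0.83 and MDM4 from 0.18 to -0.26. MDM2 and RPS27L also came out below 0 in that setting, at -0.01 and -0.12. BTG1, by contrast, had neighbours with a median of -0.02 and a log2 ratio of 2.69 after subtraction. TP53I11, SESN1 and GADD45A stayed past 2-fold as well, at 1.68, 1.22 and 1.32. DNA copy number was not measured, and its part in these values was not tested.

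**Figure D3:**
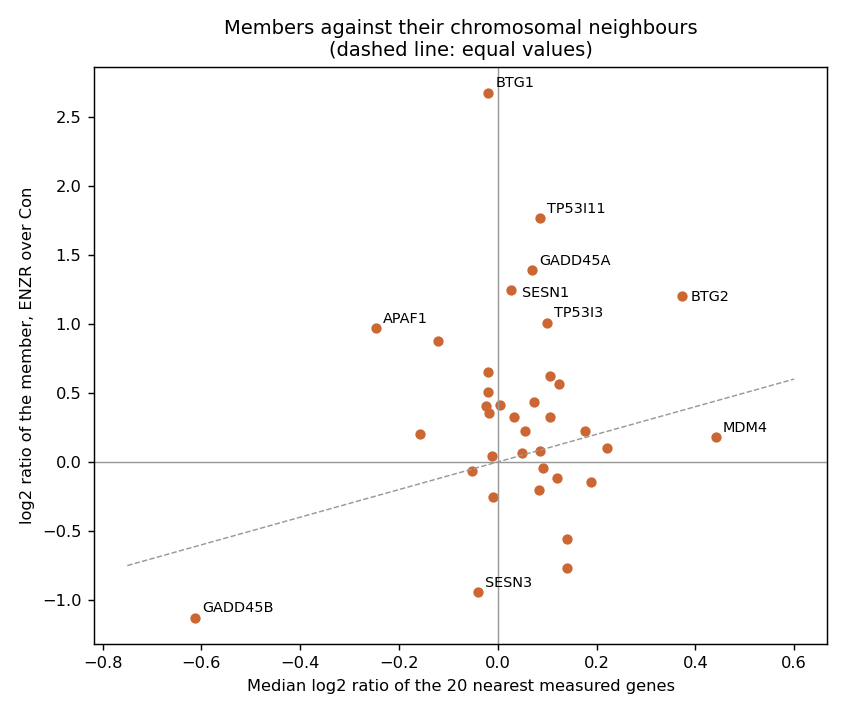
Log2 ratio of each of the 36 genes (vertical) against the median log2 ratio of its 20 nearest measured genes (horizontal), with a dashed line where both are equal. BTG1 stands at 2.67 above neighbours near 0, while GADD45B lies far left, at a neighbour median of -0.61.

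Further genes of the pathway were taken from lists by function. Of 55 other p53 targets, 43 were measured, of which 6 were higher by 2-fold or more and 3 lower, which is 14.0% and 6.98% against 6.69% and 4.64% of all measured genes, with a median log2 ratio of 0.04. CDKN1A, which encodes the cell cycle inhibitor p21, was at 62.3 CPM in Con against 92.7 CPM in ENZR, a ratio of 1.49 (1.39 to 1.60). By the log2 ratio with 1 CPM added, the highest were THBS1, the matrix protein thrombospondin, at 10.8 CPM and 74.0 CPM, 6.83-fold higher (5.94 to 7.89), and RAP2B, a small GTPase, at 91.7 CPM and 453 CPM, 4.94-fold higher (4.71 to 5.19). TLR3, named after its values were seen, had a larger plain ratio of 9.66 (5.07 to 20.7) on 10 and 117 reads. The lowest were GDF15, a secreted stress cytokine, at 49.7 CPM in Con against 9.38 CPM in ENZR, 5.30-fold lower (4.59 to 6.13), and TNFAIP8, at 13.3 CPM and 4.53 CPM, 2.94-fold lower (2.35 to 3.70). The other targets thus spread both ways around 0, with 24 above and 19 below, where 49.5% of all measured genes lay above 0.

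Of 43 other regulators of p53 activity, among them kinases, acetylases and ribosomal proteins that bind MDM2, 42 were measured. None was at least 2-fold different, where 6.69% of all measured genes were higher and 4.64% lower by as much, and the median log2 ratio was -0.06, with 19 above 0 and 23 below. Cell cycle genes that p53 lowers through the DREAM repressor complex had a median of -0.27. Of these, 19 of 25 were below 0 and 6 above, where 49.5% of all measured genes lay above 0. In either direction 0 of 25 reached 2-fold, beside the same 6.69% and 4.64%. CHEK1 is counted both here and among the regulators, and PLK1, PLK4 and RRM2 both here and among the close relatives described last. With 1 library per line these medians describe the libraries and were not tested against each other.

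**Figure D4:**
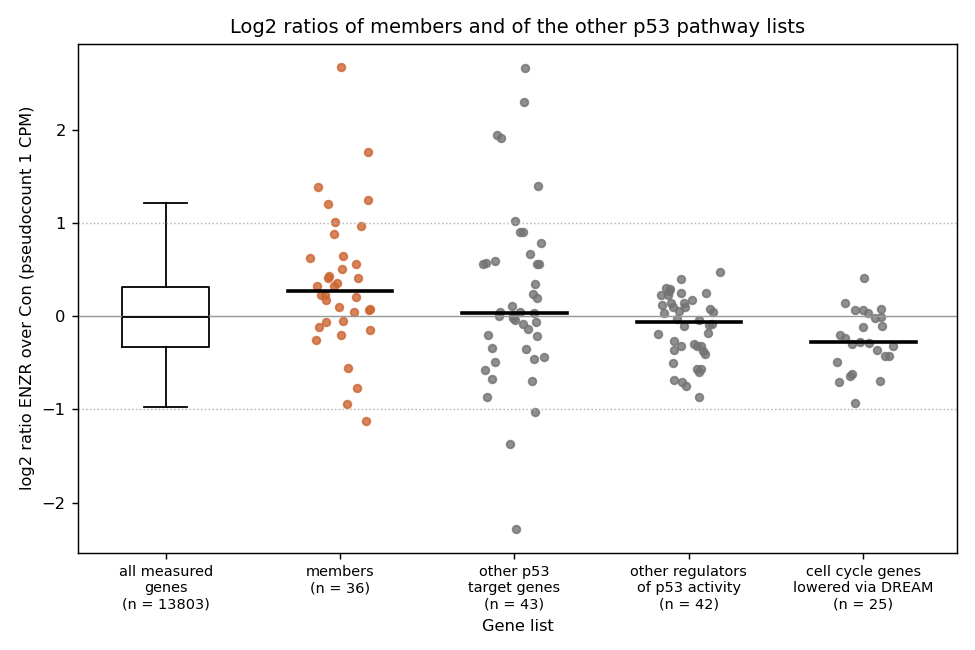
Log2 ratios of ENZR over Con, with 1 CPM added, for the 36 genes and 3 further lists (points, black bars at the medians), beside all 13803 measured genes (box from the lower to the upper quartile with the median, whiskers from percentile 5 to 95). The median of the 36 genes is 0.27, that of other p53 targets 0.04 and that of DREAM genes -0.27.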

How the data were processed

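The deposited table, headed by the sample titles, gives per gene a signal that its name describes as TMM-normalized CPM, as the authors made it. Bowtie2 2.1.0, RSEM 1.2.15 and edgeR appear in the submitters' processing notes with human build hg19, but not what each was used for. The gene annotation and the strand setting were not given in the sources used here. Every value was a whole multiple of 1 step per column (100% within 0.01 reads), so whole reads were recovered. They may be rounded RSEM estimates.

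With 1 library per group, a count model has no residual degrees of freedom, so none was run. Log2 ratios of ENZR over Con used a pseudocount of 1 CPM, which understates low genes, and were computed for genes whose mean over both libraries was at least 1 CPM. Folds are plain CPM ratios, with exact 95% Clopper-Pearson intervals (scipy 1.17.1). The calculation was tested on simulated reads that held counting error only, the same error the interval assumes. That test therefore says nothing about differences between cultures or about how reads were assigned to genes. Exon lengths and overlaps are from GENCODE v29 (basic set, all exons merged), so levels per kilobase are low for genes with long rare exons.

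All 36 members are named, and the pathway genes CDKN1A, GDF15 and SESN2 whatever their values. Some genes that the rule or the lists take are not reported here. From each other list the rule takes the 2 highest and 2 lowest log2 ratios past 2-fold. Members and lists were chosen with earlier results of these data known.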

Additional observations from a re-analysis of the deposited data

How the results depend on the processing

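Of 9 other settings, none changed the sign of the members' median log2 ratio, which ran from 0.23 (pseudocount of 5 CPM) to 0.39 (TMM scaling undone). Dropping the filter and summing repeated symbols left every member's value as it was, so these settings put the members to no test. The number at least 2-fold higher was 4 with a pseudocount of 5 CPM, 7 under each of the 3 other scalings (APAF1 added) and 6 otherwise. With the neighbours' median subtracted, BTG2 and TP53I3 left these 6 and APAF1 and CYFIP2 (1.00) entered. The number at least 2-fold lower was 0 with a pseudocount of 5 CPM and 0 with the neighbours' median subtracted. The shares over all genes moved with the setting too. At least 2-fold higher were 6.69% in the main setting, 3.24% with a pseudocount of 5 CPM and 7.16% to 7.85% under the other scalings. At least 2-fold lower were 4.64% in the main setting, 2.69% with a pseudocount of 5 CPM and 3.997% with the neighbours' median subtracted. Over all genes, 447 were at least 2-fold higher and 371 lower with a pseudocount of 5 CPM, against 923 and 641, and 577 were higher when a mean of 5 CPM or more was required, which tests fewer genes. TRIAP1 crossed 0 under the 3 other scalings (0.01 to 0.07) and SPATA18 under 2 of them (0.03). No paired analysis was possible because each group has 1 library. Depth limits AIFM2, BBC3 and SPATA18 most, the members with the fewest reads.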

Other observations

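Of 28 close relatives of the 36 genes, 25 were measured, with a median log2 ratio of -0.19. Above 0 lay 8 and below it 17, where 49.5% of all measured genes lay above 0. By at least 2-fold 1 was higher and 2 were lower, which is 4% and 8% against 6.69% and 4.64% of all measured genes. PLK1, PLK4 and RRM2, all below 0, are also counted among the DREAM genes, and SESN2, above 0, among the other p53 targets. PHLDA1, a growth-factor-induced relative of PHLDA3, was at 67.9 CPM in Con against 8.45 CPM in ENZR, 8.03-fold lower (6.94 to 9.33 by the counting interval). PHLDA2, an imprinted relative, was at 84.6 CPM and 29.5 CPM, 2.87-fold lower (2.63 to 3.13). The direction of both was opposite to that of PHLDA3. AIFM3 rested on 3 reads in Con and 54 reads in ENZR, so its ratio of 14.9 is imprecise (4.82 to 74.3).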
